A study of Homo sapiens with 15 samples.

Results

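FOXA1 peaks of 2 engineered 22Rv1 lines that had received no doxycycline were compared with the peaks of parental 22Rv1 cells and with each other. The comparison rests on 3 peak lists, 1 library each, with 51884 peaks: 30557 in parental cells given DMSO, 8575 in the line with inducible wild-type (WT) FOXA1 and 12752 in the line with inducible C258A FOXA1. The series as a whole held 15 samples and 12 peak lists with 249079 peaks from chromatin immunoprecipitation followed by sequencing (ChIP-seq) of FOXA1. A peak was taken as called in another list when it overlapped a peak of that list by at least 1 bp in hg19. Most peaks of both uninduced lines lay at parental sites, while most parental sites had no peak in either line. Which parental sites had none followed the parental score, and beyond the score, sites that also held a peak after FOXA1 knockdown were called less often in both engineered lines. Sites on chromosome 19 were also called less often in both, and so they were in parental cells given the stereoprobe WX-02-23.

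FOXA1 is a forkhead transcription factor that binds nucleosomal DNA and opens chromatin for other factors. In prostate cells it works beside the androgen receptor, and 22Rv1 is an established human prostate carcinoma line that expresses both. PHF5A is a small subunit of the SF3B complex of the spliceosome, and the Y36C change lies in the protein region that splicing inhibitors of the pladienolide type bind.

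The parental cells carried neither construct and received DMSO at 0.1% for 3 h. Both engineered lines overexpressed Y36C-PHF5A and carried a doxycycline-inducible FOXA1, of the WT form in one line and of the C258A form in the other. Both received DMSO and no doxycycline, so the FOXA1 recovered is the endogenous protein together with whatever the inducible construct made without induction, which the antibody against FOXA1 does not separate. The labels do not say whether a line is 1 clone or a pool, nor which promoter drives Y36C-PHF5A. The other lists used here for scale come from parental cells given a control small interfering RNA (siControl), one against FOXA1 (siFOXA1), pladienolide B (PladB), or the stereoprobes WX-02-23 and WX-02-43. Since each group has 1 library, no difference has a replicate check and no p-value is given. The Y36C-PHF5A background, the uninduced construct, the line and the library cannot be told apart as sources of a difference from parental cells. Intervals are Wilson 95% binomial intervals, computed as if peaks were independent of each other, and show counting error alone.

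The 3 lists differed in length, in peak width and in score, the authors' own value for each peak, which was used only to rank peaks within a list. Parental peaks had a median width of 682 bp and covered 23.1 Mb. WT peaks had a median width of 443 bp and covered 3.96 Mb, and C258A peaks had a median width of 562 bp and covered 7.47 Mb. The median score was 228 in the parental list, 159 in the WT list and 187 in the C258A list. All 24 chromosomes held peaks in each list. The number of reads behind each list is unknown, so a parental site without a peak in an engineered line is one where none was called, and weaker binding and a shallower library give the same outcome.

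Of the 30557 parental peaks, 8044 (26.3%, 25.8 to 26.8%) were called in uninduced WT cells and 11639 (38.1%, 37.5 to 38.6%) in uninduced C258A cells. Both comparisons use the same parental list and are given side by side for that reason. Divided by both lines together, 7048 parental peaks (23.1%) were called in both, 996 (3.26%) in WT alone, 4591 (15.02%) in C258A alone and 17922 (58.7%) in neither. In the other direction, 8192 of the 8575 WT peaks (95.5%, 95.1 to 96.0%) and 11836 of the 12752 C258A peaks (92.8%) overlapped a parental peak. The 2 uninduced lists are therefore close to subsets of the parental list, with 383 WT peaks and 916 C258A peaks outside it.

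The parental peaks called in both lines had a median score of 745 and a median width of 955 bp. Those called in neither had a median score of 159 and a median width of 605 bp, and the classes called in 1 line alone lay between, at 272 for WT and 320 for C258A. Of the sites called in neither line, 81.2% had a peak with siControl and 81.2% with PladB. The shares were 88.1% and 88.2% over all parental DMSO peaks, and 99.5% and 99.6% of the sites called in both lines. Fewer of the sites called in neither line had a peak with WX-02-23 (32.8%) or WX-02-43 (37.6%), against 47.2% and 55.5% of all parental DMSO peaks.

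Among the 100 parental peaks of highest score, 99 were called in WT and 100 in C258A. Of the highest 1000, 977 were called in WT and 996 in C258A, and 1 was called in neither. The parental peaks were ranked by score into 10 bins of equal size, of which bin 1 is the strongest 10%. The share called in WT fell from 86.7% in bin 1 to 59.1% in bin 2, 17.6% in bin 5 and 2.52% in bin 10. In C258A the same bins gave 95.4%, 78.6%, 31.7% and 8.09%. The decline was gradual in both lines and had no bin at which calling stopped.

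A shorter list alone gives a sharper decline. The strongest 8575 peaks of the parental siControl list, the same number as in WT, called 100% of bin 1, 93.1% of bin 2 and 58.5% of bin 3, then 6.64% of bin 5 and 0.59% of bin 10. The PladB list shortened in the same way gave 96.3% of bin 2 and 4.68% of bin 5. The WT list and the strongest 8575 C258A peaks took fewer of the strong parental sites and more of the weak ones: for C258A at that length the values were 89.99% of bin 1, 64.2% of bin 2 and 16.7% of bin 5. Parental cells under WX-02-23 declined much as C258A did at that length, with 89.8% of bin 1, 64.3% of bin 2, 15.2% of bin 5 and 2.55% of bin 10. The order of parental scores was thus followed less closely by the engineered lines than by the siControl and PladB libraries, and about as closely as by the WX-02-23 library.

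**Figure D1:**
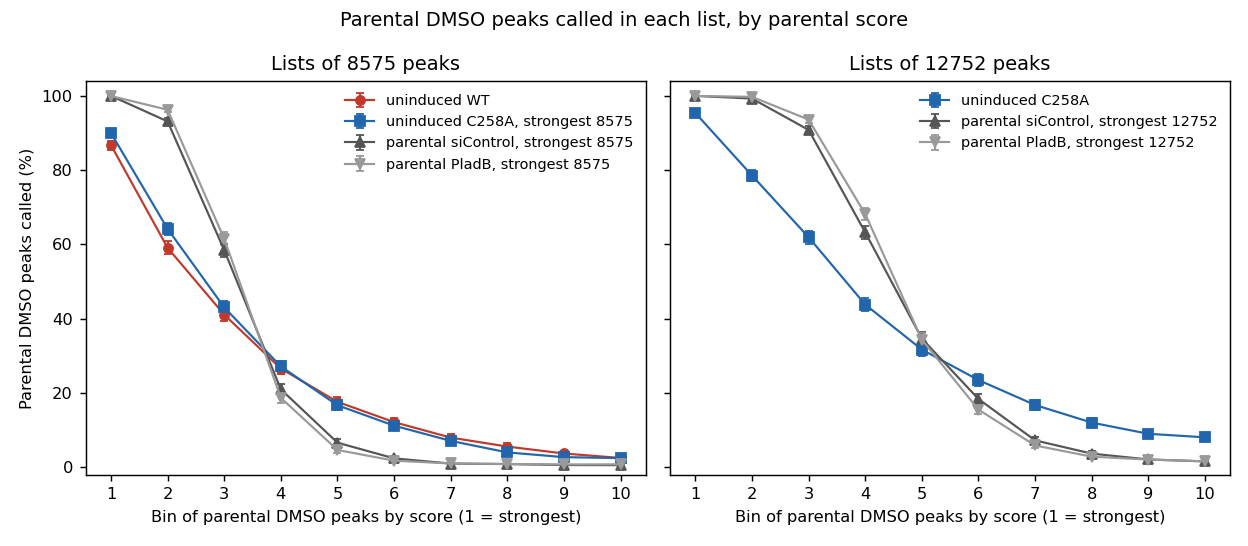
Share of parental DMSO peaks called (vertical axis, percent) in each bin of parental score (horizontal axis, 1 is strongest), for lists of 8575 peaks on the left and of 12752 peaks on the right. Bars are Wilson 95% intervals. Both engineered lines start lower and end higher than the parental siControl and PladB lists of the same length: WT goes from 86.7% to 2.52%, siControl at 8575 peaks from 100% to 0.59%.

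With every list reduced to its 8575 strongest peaks, the 2 uninduced lines overlapped each other more than either overlapped parental DMSO. Of the WT peaks, 73.4% (72.5 to 74.4%) had a partner among the C258A peaks and 65.8% (64.7 to 66.8%) among the parental DMSO peaks. For C258A peaks the share was 72.9% in WT and 69.1% (68.1 to 70.1%) in parental DMSO. Replacing parental DMSO with siControl gave 65.8% for WT and 66.7% for C258A, and replacing it with PladB gave 66.4% and 68.6%.

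Parental libraries set the scale for these values. At the same length 86.9% (86.2 to 87.6%) of siControl peaks and 88.9% of PladB peaks lay in the DMSO list, and 83.0% did so with WX-02-43. The distance of the engineered lines from parental DMSO was near that of parental cells under WX-02-23, of whose strongest 8575 peaks 67.9% (66.9 to 68.9%) lay in the DMSO list. Differences of a few points, such as those among the values for WT, exceed the counting intervals only in part, and no replicate library gives their spread.

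**Figure D2:**
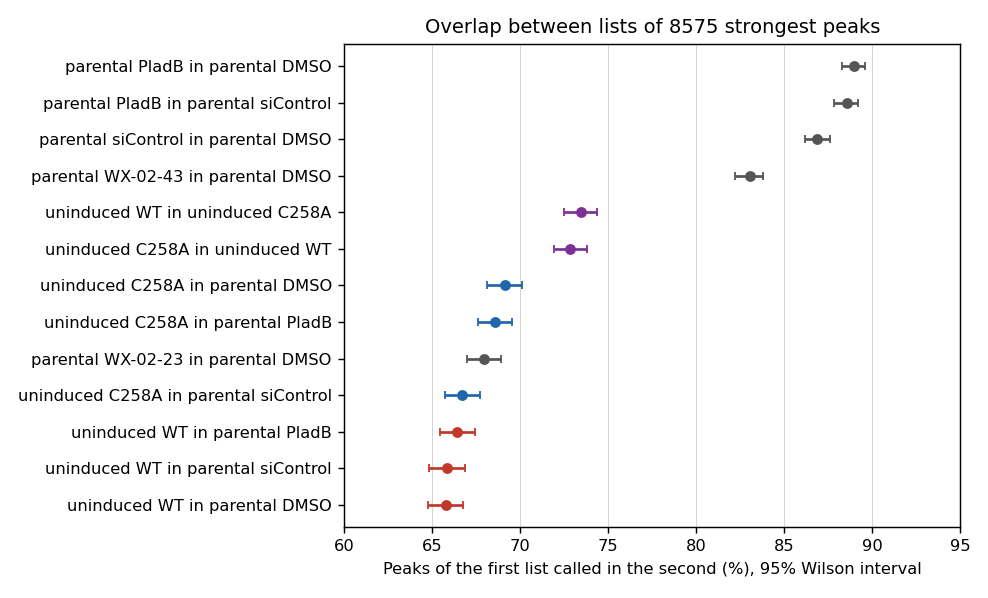
Share of the 8575 strongest peaks of one list called among the 8575 strongest of another (horizontal axis, percent, starting at 60, with Wilson 95% intervals), 1 row per pair of lists. Pairs of WT with a parental list are red, of C258A with a parental list blue, of the 2 lines purple and of parental lists grey. The 2 lines share 72.9 to 73.4%, each shares 65.8 to 69.1% with a parental list, and siControl or PladB shares 86.9 to 88.9% with parental DMSO.

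At shared sites the engineered peaks were narrow and sat within the parental ones. The median WT peak was 0.476 times as wide as its parental partner, 446 against 925 bp, and 96.0% of the shared WT peaks lay wholly inside a parental peak. The median C258A peak was 0.657 times as wide, 569 against 868 bp, and 85.6% lay inside. Peak centres were 50 bp apart at the median for WT and 45 bp for C258A. For siControl the width ratio to parental DMSO was 1.09. Ranks of score within shared sites gave a Spearman coefficient of 0.60 between parental and WT (8192 sites), 0.62 between parental and C258A (11836 sites) and 0.72 between the 2 lines (7269 sites), against 0.88 between parental DMSO and siControl. These coefficients describe the sites that passed peak calling in both lists, and no p is attached to them.

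Parental width followed score, so width was read within score bins. Over all parental peaks the widest 10% were called at 69.3% in WT and 79.8% in C258A and the narrowest 10% at 3.63% and 8.84%. Each score bin was split into 3 groups of equal size by width. Averaged over the bins, the widest and the narrowest group differed by 0.65 points in WT (25.5 against 24.8%) and by 1.64 points in C258A (37.5 against 35.9%). The middle group was higher than both, at 28.7% in WT and 40.9% in C258A. Bins went both ways in WT: the widest group was the higher one in 5 of 10, with differences from -4.95 points in bin 3 to 15.2 in bin 1. In C258A the widest group was higher than the narrowest in 9 of 10, with differences from -3.96 points in bin 5 to 5.31 in bin 1. In bin 1, 92.4% of the widest, 90.6% of the middle and 77.2% of the narrowest group were called in WT. The share that also held a siFOXA1 peak moved with this: 12.5%, 7.46% and 29.8% in the same order. Without those peaks the WT shares were 92.0%, 91.2% and 88.5%, and the C258A shares were 97.1%, 97.1% and 97.6%.

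That led, after the data had been seen, to a comparison by siFOXA1 call. Knockdown of FOXA1 left 3018 peaks in parental cells, and 1199 parental DMSO peaks overlapped one of them. These are strong sites, so their share was set against a standardised share: the value they would have if each were called as often as all parental peaks of its score bin. Of the 1199 peaks, 39.0% (36.3 to 41.8%) were called in WT against a standardised 62.1%, and 54.9% (52.1 to 57.7%) in C258A against 76.2%. The deficits were 23.0 points in WT and 21.3 points in C258A.

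The deficit appeared in each of the 4 strongest bins. In bin 1, 66.6% of the 506 siFOXA1-called sites and 90.7% of the other 2550 were called in WT, and 86.0% and 97.3% in C258A. In bin 2 the WT values were 28.0% of 347 sites and 63.1% of 2709, and the C258A values 50.7% and 82.1%. In bin 4, 5.41% of 74 sites were called in WT and 2.70% in C258A, where the other sites gave 27.1% and 44.8%. From bin 7 on fewer than 20 sites per bin were left, too few to read.

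Other parental libraries showed the opposite sign at equal length. Among their strongest 8575 peaks, siControl called 90.7% of the 1199 sites against a standardised 78.9%, PladB 85.4% against 80.1%, WX-02-43 93.7% against 76.3% and WX-02-23 94.9% against 64.9%. The strongest 8575 C258A peaks called 36.9% against 65.1%. So the sites that had a peak after knockdown were called more often than others of equal score in 4 parental lists and less often in both engineered lists. The standardised share takes account of score alone, and in the strongest bins the siFOXA1-called sites were also narrower. Their median width was 980 bp against 1237 bp for the other sites in bin 1, and 796 against 975 bp in bin 2. Whether width carries part of the deficit was not tested. The siFOXA1 library is 1 library too, and what else its peaks share was not tested.

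**Figure D3:**
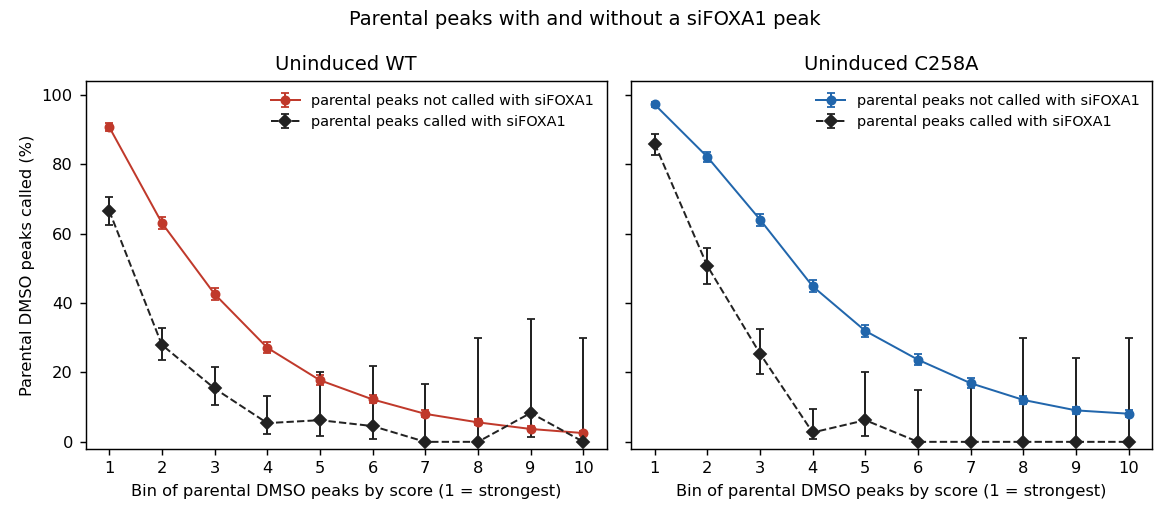
Share of parental DMSO peaks called in uninduced WT (left) and C258A (right) cells (vertical axis, percent) in each bin of parental score (horizontal axis, 1 is strongest), for peaks with (black, dashed) and without (coloured) a siFOXA1 peak. Bars are Wilson 95% intervals, and from bin 7 on the black points rest on fewer than 20 peaks each. In bin 2 the black points are at 28.0% in WT and 50.7% in C258A and the coloured ones at 63.1% and 82.1%.

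The strong parental sites missing from the engineered lines can be counted directly. Of the 3056 peaks in bin 1, 2613 (85.5%) were called in both lines, 38 in WT alone, 302 (9.88%) in C258A alone and 103 (3.37%) in neither. All 103 had a peak with siControl, PladB and WX-02-43, as did all 3056. With WX-02-23, 98 of the 103 had one (95.1%), against 97.5% of the 3056. A siFOXA1 peak was present at 50 of the 103 (48.5%, 39.1 to 58.1%), at 21 of the 38 (55.3%) and at 119 of the 302 (39.4%), against 316 of the 2613 (12.1%). Over the whole of bin 1 it was present at 506 peaks (16.6%, 15.3 to 17.9%).

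Named sites illustrate the classes; each was taken by highest score in its class. The parental peak of highest score, on chromosome 3 (chr3:195586247-195588120), ranked 36 of 8575 in WT and 959 of 12752 in C258A. The second (chr7:84158267-84159820) ranked 3801 in WT and 401 in C258A, and the third (chr4:57487506-57489166) ranked 299 and 248. All 3 had no siFOXA1 peak. They were called in every other list. Since they were picked as the strongest of parental DMSO, lower places elsewhere are favoured by the choice, and parental lists showed them too. The first ranked 20 with PladB, 285 with siControl, 225 with WX-02-43 and 1978 with WX-02-23.

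The strongest parental site called in neither line lay on chromosome 7 (chr7:102133188-102135850, 2663 bp wide, rank 398). It was called in each of the 5 parental lists other than siFOXA1, at ranks between 204 and 885, and in none of the 6 engineered lists, induced ones included. A second on the same chromosome (chr7:140767028-140767962, rank 1072) was likewise absent from all 6 engineered lists but held a siFOXA1 peak at rank 391 of 3018. The third (chr16:89495684-89498107, rank 1210) was absent without doxycycline and called in 3 induced lists, at rank 12710 in induced WT with DMSO, 3605 in induced WT with WX-02-23 and 4707 in induced C258A with WX-02-23.

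The named sites called in 1 line alone ranked far lower in that line than in parental cells, which their choice by parental score favours. The classes as a whole were weaker, with a median parental rank of 13178 for WT alone and 11414 for C258A alone. The strongest parental site called in C258A and not in WT (chr18:61348194-61349629) ranked 19 in parental cells and 4400 in C258A, and it was called in all 4 induced lists. It was also the 1 peak of the parental 100 that WT lacked. The next 2 (chr7:102328383-102329971 and chr8:92320052-92321647) ranked 153 and 321 in parental cells and 10041 and 5756 in C258A. The strongest site called in WT and not in C258A (chr2:227602556-227604395) ranked 802 in parental cells and 3819 in WT. The others of that class were chr1:204052932-204054345, at rank 850 in parental and 6723 in WT cells, and chr3:170186775-170188955, at 995 and 5947.

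On chromosome 7, chr7:102328383-102329971 was called in no other engineered list than uninduced C258A, and its neighbour chr7:102133188-102135850 in none, although both ranked among the 500 strongest parental peaks. The other parental peak among the 500 that WT lacked, not named so far, was chr3:187358785-187360257 at rank 485, which C258A held at rank 10605. It was named after its values were seen.

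**Figure D4:**
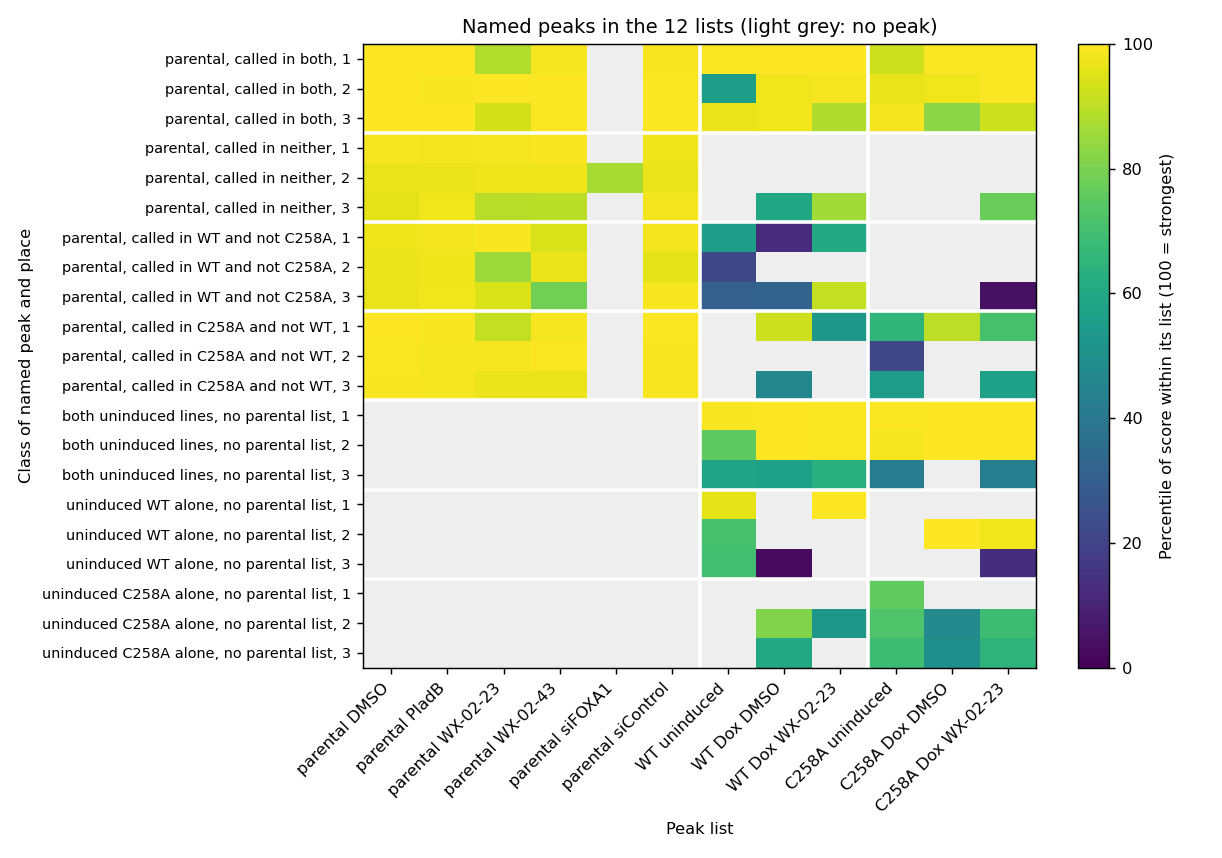
Percentile of score (colour, 100 is strongest in its list, light grey is no peak) of the 21 named peaks (rows, 3 for each of 7 classes in order of score) in the 12 lists (columns, parental on the left, then WT, then C258A). Rows of the class called in neither line are high in 5 parental lists and grey in both uninduced columns. The 9 rows of engineered peaks outside every parental list are grey in all 6 parental columns.

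Chromosomes were compared by observed minus standardised share, in points, so that a chromosome with weaker parental peaks is not counted as depleted for that reason. Chromosome 19, the one with most protein-coding genes per Mb (24.5), was low in both lines. Of its 645 parental peaks 18.1% were called in WT against a standardised 23.0%, a difference of -4.83 points, and 24.5% in C258A against 34.5%, a difference of -10.0. The strongest siControl peaks gave +3.28 points there at the WT length and +0.73 at the C258A length, each with an interval that includes 0. Parental cells under WX-02-23 were as low as WT at the same length, at 17.2% against 23.1% (-5.88 points, -8.60 to -2.78), and WX-02-43 gave -3.12 with an interval that includes 0. With a reciprocal overlap of 50% the WT value was -1.93 (-3.90 to 0.52). The deficit on chromosome 19 is therefore not particular to the engineered lines, and in WT the interval includes 0 under the stricter overlap rule.

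Other chromosomes low in both lines were 12 (-3.81 points in WT and -6.46 in C258A) and 16 (-2.59 and -5.48), and for chromosome 16 the WT interval includes 0. The highest in both lines was chromosome 21, where 34.4% of 282 peaks were called in WT against 26.9% and 47.2% in C258A against 38.9%. With siControl as the parental list chromosome 21 came to +3.76 points in WT (-0.66 to 8.65) and +3.46 in C258A (-1.43 to 8.62), below chromosome 18. With parental DMSO chromosome 18 stood next, at +5.09 points in WT and +5.40 in C258A. Next came chromosome 14 in WT (+4.39 points, and +2.16 in C258A) and chromosome 13 in C258A (+4.58, and +1.10 in WT). These C258A values are for its full 12752 peaks. The strongest 8575 C258A peaks gave +5.14 on chromosome 21 (-0.07 to 10.8) and +2.69 on 18 (-0.64 to 6.25). At that length chromosomes 14 (+3.60) and 13 (+3.42) stood above 18, and 12 (-4.87) and 16 (-3.78) stayed low.

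Both sex chromosomes were low in WT. On X 16.1% of 887 peaks were called in WT against 22.1%, a difference of -6.01 points, and on Y 16.5% of 164 against 25.1%, a difference of -8.66. In C258A at its full 12752 peaks the differences were -2.01 on X and +0.71 on Y, with intervals that include 0. Its strongest 8575 peaks, the WT length, gave -3.91 on X (-6.33 to -1.22) and -5.63 on Y (-11.0 to 1.16). Parental lists of 8575 peaks lay above 0 on X, at +2.78 for siControl, +4.66 for WX-02-43 and +5.99 for WX-02-23. PladB gave +0.36 there, with an interval that includes 0. The values of both lines also moved with the settings. Y in WT was -2.23 (-5.89 to 3.28) with a reciprocal overlap of 50%, and X in WT was -3.84 without siFOXA1-called peaks. X in C258A was -3.59 (-6.27 to -0.73) with siControl as the parental list. Whether the lines differ there beyond library spread was not tested. Intervals excluded the standardised share on 7 of 24 chromosomes in WT (3 above and 4 below) and on 11 in C258A (6 above and 5 below). The siControl list gave 1 such chromosome at the WT length and 2 at the C258A length, and PladB gave 0 and 2.

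Over the 22 autosomes the difference fell with the number of protein-coding genes per Mb, with a Spearman coefficient of -0.47 in WT and -0.81 in C258A. The strongest 8575 C258A peaks gave -0.77. The same quantity was 0.07 for siControl and 0.45 for PladB at 8575 peaks, -0.41 for WX-02-23 and -0.57 for WX-02-43. The SD of the differences over autosomes was 2.80 points in WT and 4.31 in C258A at its full 12752 peaks. At 8575 peaks it was 2.94 in C258A, 1.91 with WX-02-23 and 0.999 with WX-02-43. A coefficient near that of WT was thus seen in parental lists too. The points are chromosomes of 1 library each, both lines share the parental list, and base composition and copy number, which can move with gene density, were not analysed here. The coefficients therefore describe these libraries and carry no p.

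**Figure D5:**
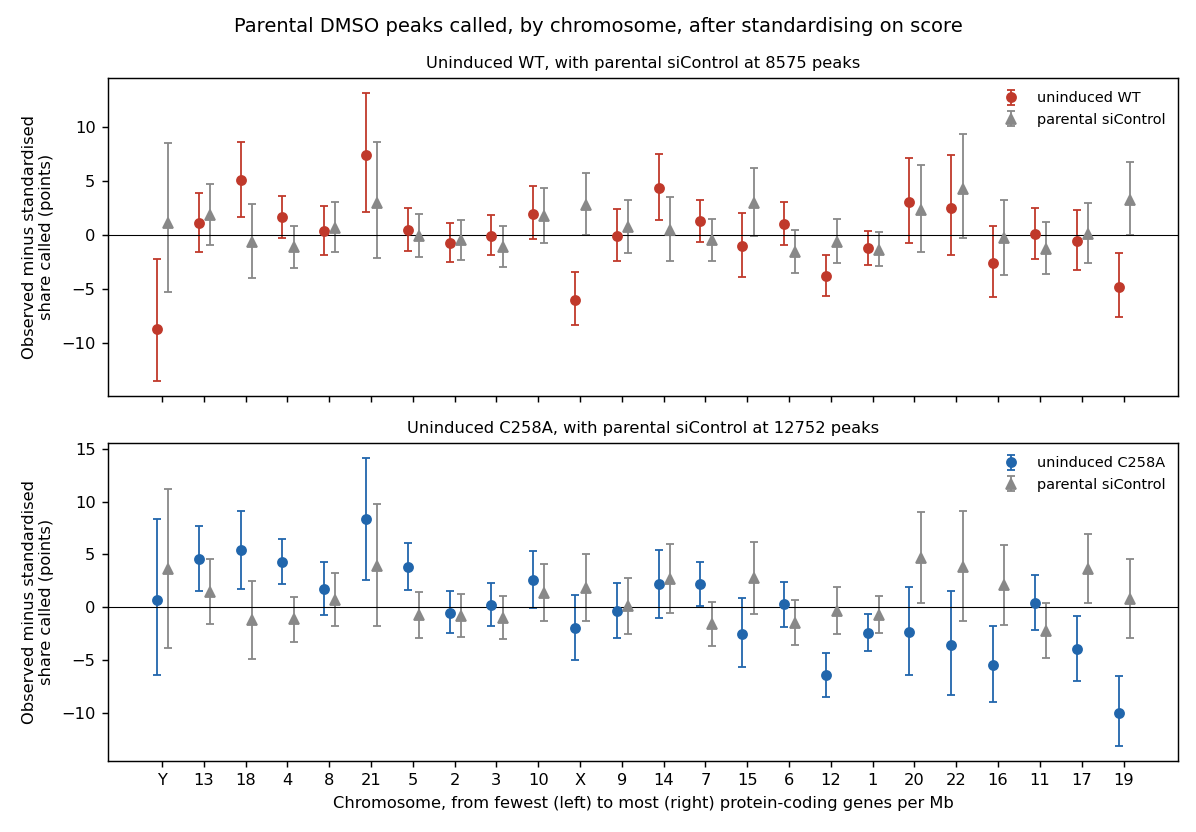
Observed minus standardised share of parental DMSO peaks called (vertical axis, points) on each chromosome (horizontal axis, ordered from fewest to most protein-coding genes per Mb), for WT above and C258A below, with parental siControl shortened to the same length in grey. Bars are Wilson 95% intervals of the observed share. C258A goes from mostly above 0 on the left to -10.0 on chromosome 19, and WT is lowest on Y and X.

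The same difference was taken in windows of 10 Mb, of which 302 held at least 20 parental peaks. Each of these windows held a called peak in both lines. The SD over windows was 5.02 points in WT and 3.24 in siControl, both at 8575 peaks, and 6.77 in C258A at its full 12752 peaks. Intervals excluded the standardised share in 24 windows for WT and 47 for C258A, in both directions alike (11 above and 13 below, 24 above and 23 below). With 302 windows, counting error alone puts some outside their intervals, and no such count was made for a parental list. The WT count rests on 8575 peaks and the C258A count on 12752, so the lines were not compared at equal length. Whether either count exceeds that of a parental list was not tested.

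The lowest window in WT was at 140 to 150 Mb of X, with 5 of 48 peaks called (10.4% against 26.4%), while C258A differed by -0.76 points there. It was followed by 20 to 30 Mb of Y, with 9 of 70 called, and by 0 to 10 Mb of chromosome 5, with 4 of 39 called. That chromosome 5 window was also the second lowest in C258A, with 7 of 39 called. The lowest in C258A was at 110 to 120 Mb of X, with 13 of 68 called (19.1% against 40.3%). There siControl, at 8575 peaks against 12752 in C258A, was 19.8 points above its standardised share. The third lowest in C258A was at 30 to 40 Mb of chromosome 16, with 14 of 68 called.

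The highest windows of both lines met on chromosome 21. In WT 10 to 20 Mb held 28 of 68 called (41.2% against 26.7%) and C258A was 12.4 points above there. In C258A 20 to 30 Mb held 43 of 70 called (61.4% against 42.6%). The other high windows were 18 at 40 to 50 Mb (34 of 96) and 1 at 100 to 110 Mb (38 of 105) in WT, and 5 at 40 to 50 Mb (43 of 76) and 1 at 190 to 200 Mb (76 of 127) in C258A. The crowding of parental peaks made little difference. Sites with no other parental peak within 50 kb were called at 25.1% in WT and 37.4% in C258A, and sites with 3 or more at 27.9% and 38.9%, which is within 0.4 points of the standardised shares.

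Between the 2 lines, 7317 of the 8575 WT peaks (85.3%, 84.6 to 86.1%) were called in C258A, and 7269 of the 12752 C258A peaks (57%, 56.1 to 57.9%) in WT. In 10 bins of WT's own scores the share called in C258A fell from 99.7% to 58.6%, and in bins of C258A's own scores the share called in WT fell from 99.9% to 19.8%. The 1258 WT peaks without a C258A partner had a median score of 107.6, against 177 for the rest, and 80.8% of them were parental DMSO peaks. The 5483 C258A peaks without a WT partner had a median score of 127.8 against 302, and 85.8% were parental DMSO peaks. The differences between the lines thus lay mainly among weak peaks at parental sites.

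In the strongest 10% of each list few peaks were missing from the other line, and they were named after their values were seen. WT had 3. One was on Y (chrY:58841435-58848477, 7043 bp wide, rank 213), which parental cells held under WX-02-23 and WX-02-43 and not in DMSO. One was chr14:38060367-38062036 at rank 363, and one was chr16:46432002-46435802 at rank 399, which held a siFOXA1 peak. C258A had 1, chr15:27553450-27554602, at rank 814 in C258A and 5443 in parental cells. Sequence, repeats, genes and copy number at these peaks were not analysed, and whether their signal is FOXA1 binding was not tested.

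Few engineered peaks lay outside all parental lists. Of the 383 WT peaks absent from parental DMSO, 181 (47.3%) had a siControl peak and 166 (43.3%) a PladB peak. The whole WT list gave 97.0% and 96.8%. Of the 383, 137 (1.6% of the list) overlapped no peak of any of the 6 parental lists. Of the 916 C258A peaks absent from parental DMSO, 333 (36.4%) had a siControl peak and 341 (37.2%) a PladB peak. The whole C258A list gave 93.5% and 93.8%. Of the 916, 440 (3.45% of the list) overlapped no peak of any parental list. The 137 and the 440 peaks were weak, with median scores of 103 and 112. Of them, 2 WT peaks and 1 C258A peak were in the strongest 10% of their list. The other uninduced line held 44 of the 137 WT peaks (32.1%) and 43 of the 440 C258A peaks (9.77%), against 85.3% and 57% of the whole lists. An induced list of WT held 45 of the 137, an induced list of C258A held 125 of the 440 and an induced list of WT held 182 of the 440. For the whole lists the same counts were 6650 of 8575, 6713 of 12752 and 8851 of 12752, all larger shares. A total of 66 WT and 221 C258A peaks were called in no other list of the series.

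One short region on chromosome 8 stood apart, and was singled out after its values were seen. Its sequence, repeats and copy number were not analysed here, and whether its signal is FOXA1 binding was not tested. Over chr8:43092640-43097348, 4709 bp, WT had 4 peaks with a best rank of 94, and C258A had 3 peaks with a best rank of 62. All 4 induced lists held peaks there too, with best ranks of 3 and 129 in WT and 3 and 8 in C258A. Parental DMSO, PladB, WX-02-43, siFOXA1 and siControl had none, and WX-02-23 had 2 weak ones, with a best rank of 16018 of 17217. Engineered peaks covered 3751 bp of the region in WT and 4559 bp in C258A. The 3 C258A peaks there were those in the strongest 10% of the C258A list that parental DMSO lacked. Of the WT peaks, chr8:43095631-43097312 and chr8:43093632-43093965 led the class called in both lines and in no parental list, followed by chrY:9654270-9654436 at rank 3576 in WT and 7336 in C258A.

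The strongest peak called in WT without a C258A or parental partner was chr14:38060367-38062036, 1670 bp wide, with a score of 741. Of the other lists it was in 1, induced WT with WX-02-23, at rank 46 of 25849. The next were chr6:58776006-58780183 at rank 2508, which both induced C258A lists held at ranks 50 and 466, and chr4:190840800-190841320 at rank 2602. In C258A the class was led by chr5:17815012-17815656 at rank 3122, which no other list held, then by chr20:29635695-29638829 and chr13:93516870-93517526 at ranks 3494 and 3945. Genes, repeats, copy number and construct sequence at these places were not analysed here. Whether the signal there is FOXA1 binding was not tested. Of the 440 C258A peaks outside all parental lists, 55 (12.5%) lay on chromosome 7, which held 7.99% of the whole C258A list, and 17 (3.86%) on chromosome 21, which held 1.26%. Both chromosomes were picked after these values were seen.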

How the data were processed

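FOXA1 ChIP-seq peak lists of parental DMSO, uninduced WT and uninduced C258A 22Rv1 cells were compared, with 9 further lists for scale. Fixation was in 1.1% formaldehyde, per the labels' protocols. Per the submitters' processing notes, bcl2fastq, Bowtie2 and hg19 were used. Peak names begin with MACS, per the files; its version, thresholds and control are not given in the sources used here. The deposited score is the authors' value for each peak, with no stated definition. One list was deposited per library.

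Starts were read as counted from 0 and are printed counted from 1. Overlaps were computed in Python 3.11.15 (scipy 1.17.1) and checked with bedtools 2.31.1 and on simulated data. A standardised share averages, over a set's peaks, the share called among all parental peaks of the same score bin (10 bins of equal size). Genes per Mb are protein-coding genes of RefSeq GRCh38.p14 divided by the highest peak position per chromosome; none of its coordinates was used.

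Named peaks are the 3 of highest score in each of 7 classes; chromosomes (at least 100 peaks) and windows (at least 20) are the 3 highest and 3 lowest by observed minus standardised share. Members and rules were chosen with earlier results of these data known. Sequences, motifs and nearby genes were not analysed here, since no hg19 genome was used. Alternatives were other overlap rules, equal list lengths, the strongest 50% of peaks, the siControl list as reference and autosomes alone.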

Additional observations from a re-analysis of the deposited data

How the results depend on the processing

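No paired analysis was possible because each group has 1 library and the result comes from no test; no library could be left out. Read depth is unknown, so sites near the calling threshold cannot be called absent. Of 60 other settings for 10 results, 27 moved the value by less than its counting interval, or a count by less than 1.5 times, 33 moved it further and 0 reversed it; with autosomes alone none of the 10 moved further. Values below are given for WT, then C258A. Parental peaks called came to 11.6% and 32.3% with a reciprocal overlap of 50%, 24.8% and 37.0% with the centre inside the other peak, 64.0% and 68.5% at equal list length, and 23.9% and 34.3% with siControl as the parental list; with a gap of up to 500 bp C258A gave 38.7%. Engineered peaks called in parental cells came to 41.4% and 77.5% with reciprocal overlap, 65.8% and 70.1% at equal length, and 97.0% and 93.5% with siControl. WT peaks called in C258A, then C258A peaks in WT, came to 79.7% and 53.6% with reciprocal overlap, 86.9% and 58.3% in the strongest 50% of both lists, and 73.4% and 72.9% at equal length. The strongest 10% of parental peaks came to 18.98% and 69.7% with reciprocal overlap, 78.6% and 90.8% with the centre rule, 81.0% and 90.6% with siControl, and 95.2% and 98.8% for the strongest 1528 peaks. Peaks absent from every parental list other than siFOXA1 numbered 148 and 444 under the main rule, where 137 and 440 were absent from all 6 parental lists. The 148 and 444 came to 1786 and 905 with reciprocal overlap and 18 and 34 in the strongest 50% of the list. The narrow engineered peaks cannot cover 50% of a parental peak over 2 times their width, so the reciprocal rule removes shared sites by its construction; for the other moves the cause was not tested. Among settings added after seeing the data, 46 of 48 chromosome differences stayed within the interval of the reported value, though some intervals of their own then included 0, as given in the text. The gene density coefficient lay between -0.53 and -0.47 in WT and between -0.86 and -0.80 in C258A, each within 0.1 of the reported value. Chromosome 19 ranged from -10.4 to -7.62 points in C258A and from -5.50 to -1.93 in WT, where the reciprocal rule, the setting of the smallest value, left an interval that includes 0. On chromosome 12 that rule gave -5.66 points in WT and -9.66 in C258A. The share of strong parental peaks called in neither line that had a siFOXA1 peak ranged from 30.3% in the strongest 20% to 61.3% with siControl as the parental list.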
